A study of Homo sapiens with 8 samples.

Results

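The BCL2 family members measured here were the 10 genes BCL2, BCL2L1, MCL1 and BCL2A1 (anti-apoptotic), BAX and BAK1 (effectors), and BID, BCL2L11, BBC3 and PMAIP1 (BH3-only). They were found by their gene symbols in a table of 26364 symbols, and all 10 were present. The table holds RNA-seq of MV4-11, a human acute myeloid leukemia (AML) cell line that carries FLT3-ITD and the MLL-AF4 fusion, so that every group shares these lesions and rests on 1 cell line. Cells received DMSO (control), the LSD1 inhibitor tranylcypromine (TCP) at 5 μM, the CDK4/6 inhibitor palbociclib at 0.5 μM, or both molecules together (the combination), with 2 libraries in each of the 4 groups. The labels give a treatment of 4 days, whereas the methods of the study start the CDK6 inhibitor 1 day ahead of the second molecule, so the time under TCP may be shorter than the label. The methods also describe coculture of the AML cell lines on HS-5, a human stromal cell line.

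Mitochondrial apoptosis is decided by interactions inside this family. Anti-apoptotic members hold the effectors BAX and BAK in check, BH3-only proteins are activated by stress and either occupy the anti-apoptotic members or activate the effectors directly, and free effectors open the outer mitochondrial membrane to release cytochrome c. AML cells commonly depend on BCL2, the target of venetoclax, and on MCL1, and these proteins are also controlled by their stability and binding partners, which RNA does not show.

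Values are TPM, a normalized transcript abundance. They are corrected for gene length and are scaled to the same sum in every library. Their read depth is unknown, and with RNA pooled from many cells, fewer cells expressing a gene and less RNA per cell cannot be told apart. The hematopoietic markers PTPRC and CD33 and the leukemia genes FLT3, HOXA9 and MEIS1 were present in all 8 libraries, whereas MPO reached at most 7.03 TPM and KIT 1.48 TPM. The 10 stromal markers summed to 12.7 to 35.3 TPM in 7 libraries and to 101 TPM in palbociclib replicate 2. In palbociclib replicate 2, COL1A1, COL3A1 and FN1 reached 22.2, 17.5 and 23.4 TPM, and LUM, COL6A3 and THY1 0.193, 0.667 and 1.53 TPM. TAGLN was the largest part of the sum in the 7 libraries, at 8.30 to 17.7 TPM. It held 14.1 TPM in palbociclib replicate 2, and POSTN was at 0 in every library. The 8 markers of differentiated myeloid cells summed to 394 to 877 TPM in control libraries, 895 to 1885 TPM in TCP libraries, 19361 to 21533 TPM in palbociclib libraries and 38298 to 38962 TPM in combination libraries. LYZ was the largest part of this sum in every library. It held 278 and 770 TPM in control libraries, 16431 and 18984 TPM with palbociclib, and 26591 and 28617 TPM with the combination. Of the 8 markers, 6 passed the test given below under palbociclib and 7 under the combination, all of them higher. ITGAM and CD86 did not pass under palbociclib, with log2 fold changes of 0.09 and -0.53. The part of stromal RNA and of differentiation in the results on the family was not tested.

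Palbociclib, alone or with TCP, changed 7 of the 10 members, and the changes cut across the functional classes. Transcripts of the death antagonists BCL2L1, MCL1 and BCL2A1 and of the BH3-only gene BCL2L11 rose, those of BCL2 and of the BH3-only genes BBC3 and PMAIP1 fell, and no change of BAX, BAK1 or BID passed the test. The test was limma on log2(TPM + 1) over the 14151 genes that reached 1 TPM in 2 libraries or more, with Benjamini-Hochberg adjustment over all of them, and "rose" or "fell" stands for an adjusted p below 0.05. Across all genes tested, 45.0% passed this test under palbociclib (14.8% higher and 30.2% lower), and 53.6% under the combination (15.9% higher and 37.6% lower), against 4 members higher and 3 lower under each treatment. With median-ratio scaling the same 7 members passed in both comparisons, while the background became 20.2% higher and 20.0% lower under palbociclib and 23.5% higher and 23.4% lower under the combination. The median log2 fold change of all genes was -0.04 with TCP, -0.16 with palbociclib and -0.22 with the combination, and each member's change can be read against this shift.

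Differentially expressed genes (DEG), defined by a log2 fold change of 1 or more in either direction together with an adjusted p below 0.01, included 4 members under palbociclib (BCL2, BCL2A1, BCL2L11 and PMAIP1) and 5 under the combination, which added BBC3. The background was 9.10% and 13.7% of the genes tested. TCP alone gave 0 DEG and 0 members past an adjusted p of 0.05 in limma, against a background of 0.0565% and 0.431%. With libraries paired by replicate number BCL2 passed (limma adjusted p = 0.0386), against 0.848% of all genes tested higher and 0.544% lower. Without pairing 2 members (BCL2 and BBC3) had an unadjusted p below 0.05, against 1241 of the 14151 genes tested. Palbociclib replicate 2 was the library with the highest sum of stromal markers. Without it the log2 fold changes under palbociclib were -1.51 for BCL2, 2.24 for BCL2A1, 1.32 for BCL2L11, -0.89 for BBC3 and -2.15 for PMAIP1. They were 0.33 for BCL2L1 and 0.22 for MCL1. Fewer members and fewer of all genes tested passed in this fit than with all 8 libraries. The same held without control replicate 1, control replicate 2 or palbociclib replicate 1. Nothing in the labels says that the 2 libraries of a group came from separate cultures, so the p-values measure the spread between these libraries, which may be technical. An exact permutation test of 2 libraries against 2 cannot give a p below 0.333.

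**Figure D1:**
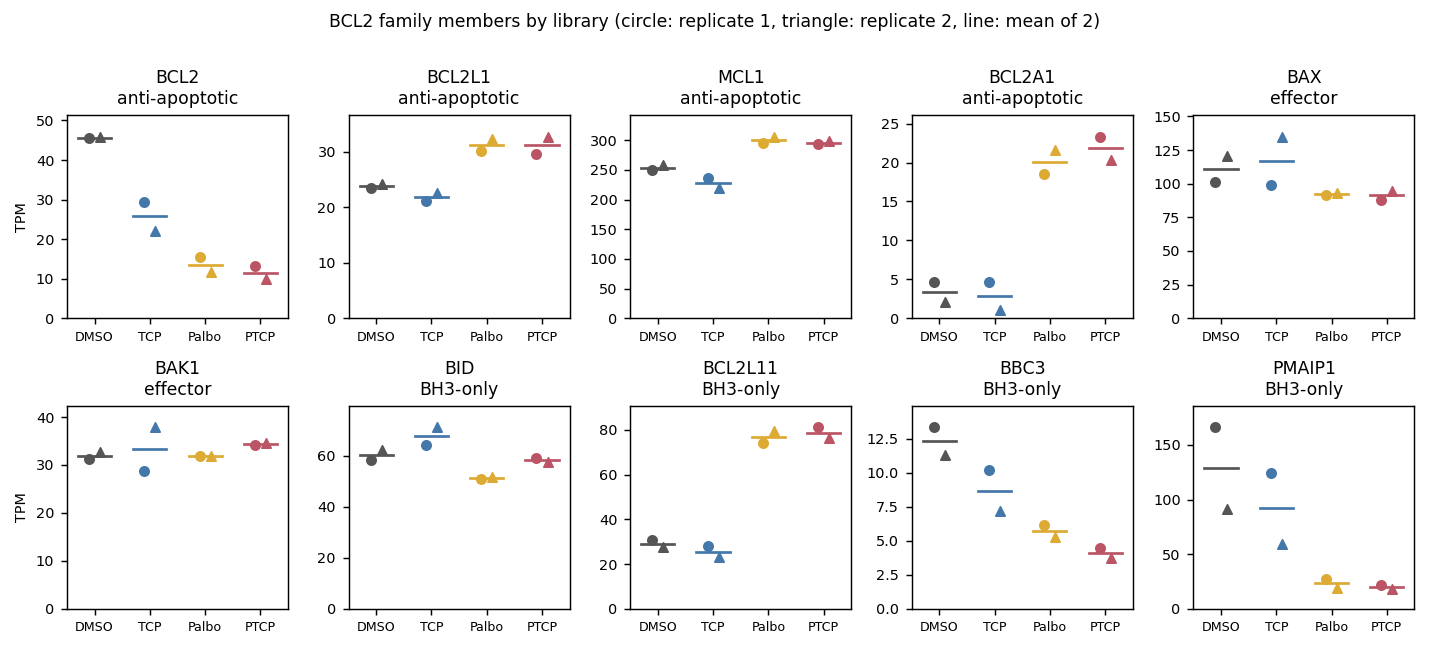
TPM of the 10 members in each of the 8 libraries (vertical axes start at 0 and differ between panels). DMSO is the control, Palbo is palbociclib and PTCP is the combination; circles are replicate 1, triangles replicate 2 and lines the mean of 2. BCL2, BBC3, PMAIP1 and BAX were lower in all 4 palbociclib-containing libraries than in both control libraries. BCL2A1, BCL2L11, BCL2L1 and MCL1 were higher in them. The change of BAX did not pass the test, and the share of all genes with such a separation was not determined.

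BCL2 is the founding death antagonist of the family and maps to chr18:60790579-60987361 (GRCh37, minus strand). Its level was 45.5 and 45.9 TPM in control libraries, 29.5 and 22.0 TPM with TCP, 15.4 and 11.7 TPM with palbociclib, and 13.1 and 9.93 TPM with the combination. The 4 groups did not overlap except for palbociclib and the combination, and BCL2 was highest in control cells and lowest under the combination. It fell by 1.69 on the log2 scale under palbociclib (SE 0.19, limma adjusted p = 0.00073) and by 1.91 under the combination (SE 0.19, limma adjusted p = 0.000288). Under TCP alone the log2 fold change was -0.82 (95% CI -1.27 to -0.36), with a limma adjusted p of 0.205. Pairing libraries by replicate number gave a limma adjusted p of 0.0386 for this change under TCP.

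BCL2L1, which encodes the antagonist BCL-XL, maps to chr20:30252255-30311792 (minus strand). It had 23.5 and 24.2 TPM in control libraries, 21.1 and 22.5 TPM with TCP, 30.2 and 32.2 TPM with palbociclib, and 29.6 and 32.7 TPM with the combination. All 4 palbociclib-containing libraries lay above the other 4. The log2 fold change was 0.37 under palbociclib (SE 0.09, limma adjusted p = 0.0138) and 0.37 under the combination (SE 0.09, limma adjusted p = 0.012). Of its annotated exonic bases, 41.3% are shared with ABALON, a long noncoding RNA on the opposite strand, and whether the counting used strand is not given in the sources used here. TCP alone gave -0.12 (95% CI -0.34 to 0.09).

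MCL1, a short-lived antagonist and the most abundant member in every group, maps to chr1:150533371-150552214 (minus strand). Its level was 249 and 258 TPM in control libraries, 237 and 220 TPM with TCP, 295 and 306 TPM with palbociclib, and 294 and 299 TPM with the combination. Palbociclib-containing libraries again lay above the others, by a small margin. MCL1 rose by a log2 fold change of 0.24 under palbociclib (SE 0.07, limma adjusted p = 0.0238) and 0.22 under the combination (SE 0.07, limma adjusted p = 0.0276), with -0.15 (95% CI -0.31 to 0.01) under TCP alone. The calls of MCL1 and BCL2L1 were lost when single libraries were left out, while in those fits the log2 fold changes under palbociclib were 0.22 to 0.27 for MCL1 and 0.33 to 0.40 for BCL2L1. Under palbociclib, both lost their call without control replicate 1 (limma adjusted p = 0.119 and 0.0737), control replicate 2 (0.072 and 0.0543) or palbociclib replicate 2 (0.121 and 0.0876). MCL1 alone lost it without palbociclib replicate 1 (limma adjusted p = 0.0622), combination replicate 1 (0.0505) or combination replicate 2 (0.0504). Under the combination, both lost it without control replicate 1 (limma adjusted p = 0.132 and 0.066) or combination replicate 2 (0.132 and 0.0881), and MCL1 also without control replicate 2 (0.0751) or combination replicate 1 (0.0971).

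BCL2A1, whose product BFL-1 is an antagonist prominent in myeloid and inflammatory cells, maps to chr15:80253234-80263538 (minus strand). It was the scarcest member in control cells, at 4.64 and 2.03 TPM, and stayed at 4.61 and 0.994 TPM under TCP. Palbociclib libraries held 18.5 and 21.6 TPM and combination libraries 23.3 and 20.3 TPM, far above the others. The log2 fold change was 2.35 under palbociclib (SE 0.48, limma adjusted p = 0.00752) and 2.46 under the combination (SE 0.48, limma adjusted p = 0.00486), and on the log2(TPM + 1) scale such changes of a scarce transcript are understated. With a pseudocount of 0.1 in place of 1 the values were 2.66 and 2.78, and the DEG call was lost in both comparisons (limma adjusted p = 0.0159 and 0.0111). Its replicates differed most where it was low, with a replicate 1 over replicate 2 ratio of 2.29 in control and 4.64 in TCP libraries, against 0.859 and 1.15 under palbociclib and the combination. The rise passed an adjusted p of 0.05 whichever library was left out. The DEG call under palbociclib was lost without control replicate 1 or 2 (limma adjusted p = 0.0142 and 0.0453), palbociclib replicate 1 or 2 (0.0299 and 0.0466), or combination replicate 1 or 2 (0.0154 and 0.0153). Under the combination it was lost without control replicate 2 (limma adjusted p = 0.0303), palbociclib replicate 1 or 2 (0.0103 and 0.0102), or combination replicate 1 or 2 (0.029 and 0.0244).

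The effectors BAX and BAK1 build the pore in the outer mitochondrial membrane. BAX (chr19:49458072-49465055, plus strand) had 101 and 120 TPM in control libraries, 99.1 and 135 TPM with TCP, 91.7 and 93.3 TPM with palbociclib, and 87.9 and 94.9 TPM with the combination. Both palbociclib-containing groups lay below the control libraries, by less than the test required. The log2 fold change was -0.25 (95% CI -0.61 to 0.11, limma adjusted p = 0.212) under palbociclib and -0.27 (95% CI -0.63 to 0.09, limma adjusted p = 0.173) under the combination. BAK1 (chr6:33540324-33548070, minus strand) had 31.3 and 32.6 TPM in control libraries, 28.6 and 37.8 TPM with TCP, 31.8 and 31.9 TPM with palbociclib, and 34.1 and 34.6 TPM with the combination. These levels overlapped between control, TCP and palbociclib cells. BAK1 had a log2 fold change of -0.0045 (95% CI -0.31 to 0.30) under palbociclib and 0.10 (95% CI -0.20 to 0.40, limma adjusted p = 0.529) under the combination, and its palbociclib value was 0.16 with median-ratio scaling. Under TCP alone the values were 0.07 (95% CI -0.29 to 0.42) for BAX and 0.04 (95% CI -0.26 to 0.34) for BAK1.

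BID, which links death receptor signaling to mitochondria after its cleavage by caspase-8, maps to chr22:18216904-18257536 (minus strand). Its level was 58.2 and 62.4 TPM in control libraries, 64.0 and 71.1 TPM with TCP, 51.0 and 51.5 TPM with palbociclib, and 59.0 and 57.3 TPM with the combination. The palbociclib libraries were the lowest and the TCP libraries the highest. The log2 fold change under palbociclib was -0.23 (95% CI -0.42 to -0.04, limma adjusted p = 0.055), and pairing libraries by replicate number brought it past the threshold (limma adjusted p = 0.0301), as did leaving out TCP replicate 1 or 2 (0.0343 and 0.0347). Under the combination it was -0.05 (95% CI -0.24 to 0.14), which turned to 0.18 with median-ratio scaling. TCP alone gave 0.16 (95% CI -0.03 to 0.35).

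BCL2L11 encodes BIM, a BH3-only activator that binds every antagonist of the family, and maps to chr2:111876955-111926021 (plus strand). Control libraries held 30.6 and 27.7 TPM, TCP libraries 27.8 and 23.3 TPM, palbociclib libraries 74.3 and 79.5 TPM, and combination libraries 81.1 and 76.1 TPM. The 4 palbociclib-containing libraries were all well above the other 4. BCL2L11 was the BH3-only member that rose, by a log2 fold change of 1.37 under palbociclib (SE 0.11, limma adjusted p = 0.000207) and 1.40 under the combination (SE 0.11, limma adjusted p = 0.000105), and it remained a DEG in both comparisons whichever library was left out. TCP alone gave -0.19 (95% CI -0.44 to 0.07). Of its annotated exonic bases, 10.8% are shared with MIR4435-2HG, a long noncoding RNA on the opposite strand.

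BBC3 encodes PUMA, a BH3-only protein that binds every antagonist of the family, and maps to chr19:47724079-47736023 (minus strand). Its level was 13.3 and 11.3 TPM in control libraries, 10.2 and 7.20 TPM with TCP, 6.19 and 5.30 TPM with palbociclib, and 4.47 and 3.76 TPM with the combination. Each group lay below the previous one in that order, with no overlap. BBC3 fell by 0.98 on the log2 scale under palbociclib (SE 0.18, limma adjusted p = 0.00498), just short of the fold that defines a DEG, and by 1.38 under the combination (SE 0.18, limma adjusted p = 0.000884). With a pseudocount of 0.1 it was a DEG under palbociclib as well (-1.09, limma adjusted p = 0.00539). The log2 fold change under TCP alone was -0.47 (95% CI -0.90 to -0.04, limma adjusted p = 0.505).

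PMAIP1 encodes NOXA, a BH3-only protein that binds MCL1 and BFL-1 and is induced by the integrated stress response, and maps to chr18:57567228-57571537 (plus strand). Control libraries held 166 and 91.6 TPM and TCP libraries 125 and 59.4 TPM, so that both groups spread widely. Palbociclib libraries held 26.9 and 19.4 TPM and combination libraries 21.7 and 17.8 TPM, all below the lowest library of the other groups. PMAIP1 had the largest fall of the family, with a log2 fold change of -2.38 under palbociclib (SE 0.40, limma adjusted p = 0.00322) and -2.59 under the combination (SE 0.40, limma adjusted p = 0.00166). In every group replicate 1 was the higher library, by a ratio of 1.81 in control, 2.10 in TCP, 1.39 in palbociclib and 1.22 in combination libraries. The fall passed an adjusted p of 0.05 whichever library was left out, while the DEG call under palbociclib was lost without control replicate 1 (limma adjusted p = 0.0194), palbociclib replicate 1 (0.0122) or palbociclib replicate 2 (0.0261), and under the combination without control replicate 1 (0.0107) or combination replicate 2 (0.0142). TCP alone gave -0.51 (95% CI -1.45 to 0.42).

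**Figure D2:**
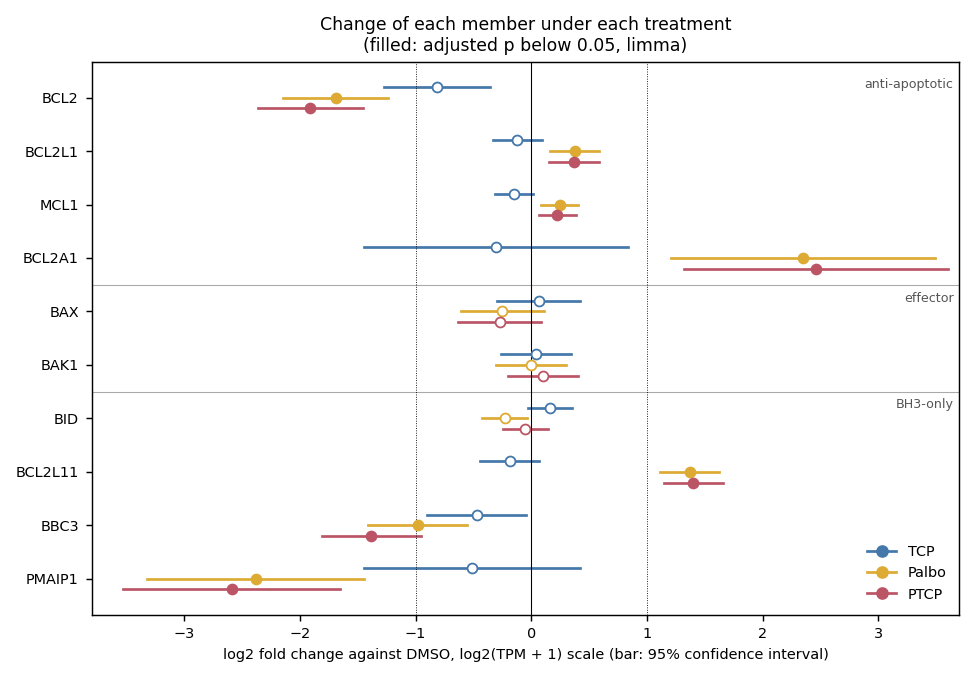
Log2 fold change of each member against control on the log2(TPM + 1) scale, with its 95% confidence interval from limma; filled circles passed an adjusted p of 0.05 and dotted lines mark the fold that defines a DEG. The palbociclib (Palbo) and combination (PTCP) intervals of BCL2, BBC3 and PMAIP1 lie below 0 and those of BCL2L1, MCL1, BCL2A1 and BCL2L11 above 0, and every TCP circle is open.

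The 5 members that were DEG under the combination were set beside the bases just before their annotated start, to show the sequence upstream of these starts and which known factor motifs it holds. RefSeq windows (GRCh38.p14) of 250 bases before the start were found for 9 of the 10 members, and those below were matched without mismatch to GRCh37. They read 5′ to 3′ toward the gene, with capitals where a motif was found. The BCL2 window is not printed, because all of its bases fall in an annotated exon, and for BBC3 the 151 bases outside exons are shown. The BCL2L11 window lies in an annotated intron, downstream of a longer transcript's start, and those of BCL2A1 and PMAIP1 lie outside the annotated gene.
BCL2A1, chr15:80263539-80263788, minus strand: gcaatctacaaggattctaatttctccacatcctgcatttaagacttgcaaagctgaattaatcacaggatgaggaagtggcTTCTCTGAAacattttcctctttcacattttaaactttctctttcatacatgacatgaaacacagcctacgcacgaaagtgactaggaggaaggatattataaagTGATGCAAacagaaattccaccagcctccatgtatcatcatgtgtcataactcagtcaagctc
BCL2L11, chr2:111878241-111878490, plus strand: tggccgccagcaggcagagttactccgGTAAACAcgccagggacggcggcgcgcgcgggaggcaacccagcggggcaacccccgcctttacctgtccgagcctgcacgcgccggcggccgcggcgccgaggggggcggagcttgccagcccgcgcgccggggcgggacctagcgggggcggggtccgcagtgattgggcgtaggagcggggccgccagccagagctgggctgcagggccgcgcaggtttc
BBC3, chr19:47736024-47736174, minus strand: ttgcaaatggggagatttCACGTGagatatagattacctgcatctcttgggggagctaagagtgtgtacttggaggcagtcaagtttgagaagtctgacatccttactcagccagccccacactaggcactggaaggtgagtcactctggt
PMAIP1, chr18:57566978-57567227, plus strand: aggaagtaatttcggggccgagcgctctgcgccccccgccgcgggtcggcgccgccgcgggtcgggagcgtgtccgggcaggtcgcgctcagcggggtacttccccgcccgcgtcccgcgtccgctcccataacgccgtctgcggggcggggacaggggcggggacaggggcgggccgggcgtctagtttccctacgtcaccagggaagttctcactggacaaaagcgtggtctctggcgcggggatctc
The windows differ in composition, with 38.8% G and C in BCL2A1 against 76.8% in BCL2L11, 72.8% in PMAIP1 and 70.0% in BCL2. Both strands were searched for 5 motif kinds. These were chosen from general knowledge of the family's regulators and not checked against a motif database. Other forms of the factors' sites were not searched, so a window without a match may still hold one. The FOXO motif GTAAACA, in 2.98% of the 35116 windows of all genes, was found in BCL2L11, 223 bases before the start. The ATF4-type motif TGATGNAA, in 3.14% of all windows, was found in BCL2A1 at 63 bases, and the palindromic STAT motif TTCNNNGAA, in 6.57%, in BCL2A1 at 168 bases. The palindromic E-box CACGTG, which MYC binds, in 6.34% of all windows, was found in BBC3 at 232 bases and also in BAX and BID. None of the members' windows held an E2F motif (TTTCCCGC, TTTCGCGC, TTTGCCGC or TTTGGCGC, in 2.79% of all windows), and the windows of BCL2 and PMAIP1 held none of the 5 kinds. No found motif overlapped one of another kind. A match is a stretch of letters and not a measured binding site.

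Within the anti-apoptotic class, the changes moved transcripts away from BCL2. BCL2 made up 14.1% and 13.9% of the summed TPM of the 4 antagonists in control libraries, 10.1% and 8.30% with TCP, 4.29% and 3.16% with palbociclib, and 3.66% and 2.75% with the combination. BCL2A1 went the other way, from 1.44% and 0.616% in control libraries to 5.17% and 5.82% under palbociclib and 6.48% and 5.63% under the combination. MCL1 supplied between 77.2% and 82.8% in every library, and the class sum was 326 ± 4.97 TPM in control, 279 ± 19.0 in TCP, 365 ± 8.62 in palbociclib and 361 ± 1.36 in combination libraries (SD, n = 2). The class sum was thus higher in the palbociclib-containing libraries than in control libraries although BCL2 was lower in them. These shares and sums are descriptions and were not tested.

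Among the 4 BH3-only members, PMAIP1 was the most abundant transcript in control libraries and BCL2L11 in the palbociclib-containing libraries. The shares and sums cover the members only. They leave out the BH3-only genes BAD (20.6 to 29.4 TPM), BMF (18.2 to 30.6 TPM) and BIK (8.01 to 15.4 TPM). The antagonist BCL2L2 (20.7 to 29.5 TPM) is likewise outside the anti-apoptotic sum. PMAIP1 made up 61.9% and 47.4% of the class sum in control libraries, 17.0% and 12.4% under palbociclib, and 13.1% and 11.5% under the combination. BCL2L11 made up 11.4% and 14.4% in control libraries, 46.9% and 51.1% under palbociclib, and 48.8% and 49.1% under the combination. TCP libraries held 55.0% and 36.9% for PMAIP1 and 12.3% and 14.5% for BCL2L11, so that PMAIP1 in TCP replicate 2 lay below both control libraries. BID made up 21.7% and 32.3% in control libraries and 28.2% and 44.2% in TCP libraries. It was the largest share in TCP replicate 2. The BH3-only sum was 231 ± 53.1 TPM in control, 194 ± 46.6 in TCP, 157 ± 1.93 in palbociclib and 161 ± 7.89 in combination libraries (SD, n = 2), so that the class sum was lower where its makeup had turned toward BCL2L11. The ratio of the BH3-only sum to the anti-apoptotic sum was 0.831 and 0.585 in control libraries and between 0.419 and 0.462 in the 4 palbociclib-containing libraries, while the ratio of BCL2L11 to BCL2 alone went from 0.672 and 0.605 to 4.82 and 6.78 under palbociclib and 6.17 and 7.67 under the combination. BCL2L11 was the BH3-only member that rose and BCL2 the antagonist member that fell, so the direction of their ratio follows from this choice. The ratios describe the members chosen and do not give the direction of a balance between pro- and anti-apoptotic transcripts.

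**Figure D3:**
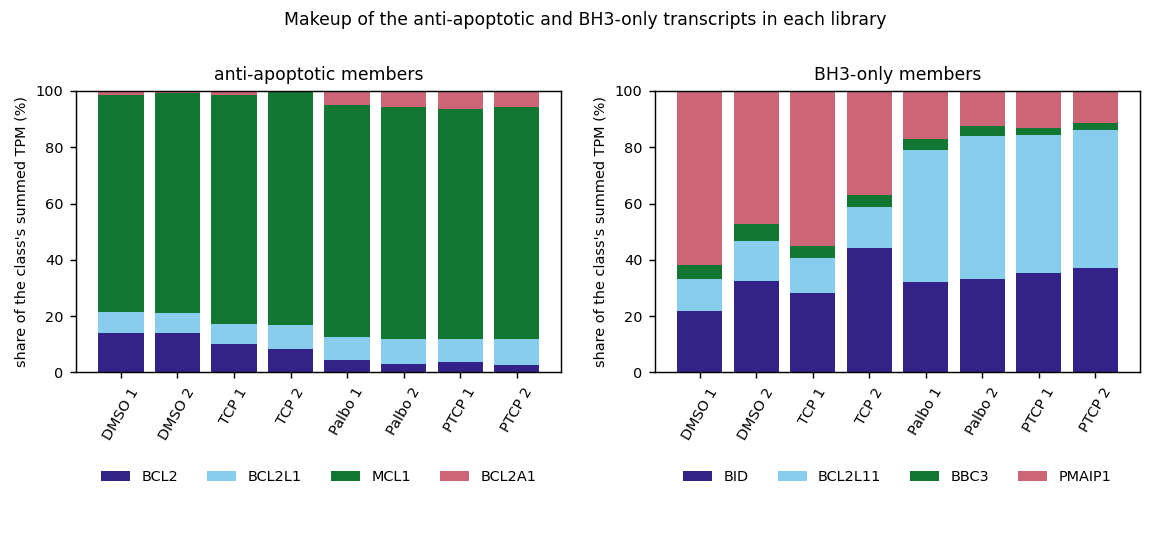
Share of each member in the summed TPM of its class, in percent, in each of the 8 libraries (1 and 2 are the replicates; DMSO is the control, Palbo palbociclib and PTCP the combination). BCL2 shrinks from 14.1% and 13.9% in control libraries to 3.66% and 2.75% under the combination. The largest BH3-only share is PMAIP1 in control libraries, BID in TCP replicate 2 and BCL2L11 in the palbociclib-containing libraries.

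The order of the levels changed accordingly. In control cells MCL1 was followed by PMAIP1, BAX, BID, BCL2, BAK1, BCL2L11, BCL2L1, BBC3 and BCL2A1, and all neighbors in this order had separate ranges except PMAIP1 and BAX. Under TCP the order was MCL1, BAX, PMAIP1, BID, BAK1, BCL2, BCL2L11, BCL2L1, BBC3 and BCL2A1, where BAX overlapped PMAIP1, PMAIP1 overlapped BID, BAK1 overlapped BCL2 and BCL2 overlapped BCL2L11. Under palbociclib BCL2L11 moved to the third place, behind MCL1 and BAX, and was followed by BID, BAK1, BCL2L1, PMAIP1, BCL2A1, BCL2 and BBC3. BAK1 overlapped BCL2L1 there, and PMAIP1 overlapped BCL2A1. The combination gave the same first 6 places and then BCL2A1, PMAIP1, BCL2 and BBC3, with an overlap between BCL2A1 and PMAIP1.

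Adding TCP to palbociclib addressed whether the pair acts on the family beyond palbociclib alone. Between the combination and palbociclib 0 members passed in limma by either rule, with or without pairing by replicate number. The background without pairing was 0.502% DEG and 3.49% with an adjusted p below 0.05. Without pairing 0 members had an unadjusted p below 0.05, against 2472 of the 14151 genes tested. The widest difference was that of BBC3, at -0.40 (95% CI -0.83 to 0.03, limma adjusted p = 0.322), and both of its combination libraries lay below both palbociclib libraries. BBC3 differed by -0.40 in replicate 1 and by -0.40 in replicate 2. With pairing its SE was 0.11 against 0.18 without, and its limma adjusted p was 0.0756. BCL2 differed by -0.22 (95% CI -0.67 to 0.24), PMAIP1 by -0.21 (95% CI -1.15 to 0.73), BCL2L11 by 0.03 (95% CI -0.22 to 0.29) and BCL2A1 by 0.12 (95% CI -1.02 to 1.26). The intervals of PMAIP1 and BCL2A1 thus reach beyond a 2-fold difference.

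Against TCP alone, the combination gave the same 4 DEG as palbociclib gave against control (BCL2A1 and BCL2L11 higher, BCL2 and PMAIP1 lower), and 7 members past an adjusted p of 0.05, against a background of 12.2% and 50.2%. BCL2 had a log2 fold change of -1.09 (SE 0.19, limma adjusted p = 0.0034), PMAIP1 of -2.08 (SE 0.40, limma adjusted p = 0.00472), BCL2L11 of 1.59 (SE 0.11, limma adjusted p = 7.92e-05) and BCL2A1 of 2.77 (SE 0.48, limma adjusted p = 0.0032). With libraries paired by replicate number, BAX (-0.34, limma adjusted p = 0.0298) and BID (-0.21, limma adjusted p = 0.0382) passed as well, for 9 members. Pairing also raised the background, to 19.5% of all genes tested higher and 40% lower. The number of DEG among members fell to 2 without TCP replicate 1 or combination replicate 1 and to 1 without combination replicate 2. The interaction of the 2 molecules is the change under the combination beyond the sum of both single changes. It passed an adjusted p of 0.05 for 0 members in limma, with or without pairing. The background was 0 DEG and 0 genes with an adjusted p below 0.05. Without pairing 0 members had an unadjusted p below 0.05, against 904 of the 14151 genes tested. The interaction value furthest from 0 was that of BCL2, at 0.60 (95% CI -0.04 to 1.24, limma adjusted p = 0.82). With pairing its SE was 0.17 against 0.27 without, and its limma adjusted p was 0.279.

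In each class the member whose group means ranged most was compared with all genes of at least 5 TPM on average, over the 8 libraries. BCL2A1 was followed most closely by HLA-E (Pearson r = 0.998), SLC16A5 (0.994) and C7orf60 (0.993). BAX was followed by SSNA1 (0.986), TSR3 (0.986) and MEX3D (0.985), and PMAIP1 by RSL24D1 (0.998), LSS (0.997) and INO80C (0.997). With libraries that fall into the same groups, such values are a description of a shared pattern over 8 points. Among the members, PMAIP1, BCL2 and BBC3 followed each other (r = 0.951 to 0.975), as did BCL2L11 with BCL2A1 (0.973), MCL1 (0.957) and BCL2L1 (0.954).

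Of the 2 further antagonists, BCL2L2 (BCL-W) fell by 0.30 on the log2 scale under palbociclib (SE 0.09, limma adjusted p = 0.0356) and by 0.36 under the combination (SE 0.09, limma adjusted p = 0.014), and BCL2L10 did not pass. BCL2L2 shares sequence with the readthrough gene BCL2L2-PABPN1, so its level is uncertain. Of 4 further BH3-only genes, HRK was at 0 in every library and the changes of BAD, BIK and BMF did not pass under any treatment, and the effector-like BOK was too low to be tested. A further list held 5 tested genes, namely relatives with a less settled role and the readthrough gene BCL2L2-PABPN1. Of these, 3 fell under palbociclib and 4 under the combination, with BCL2L2-PABPN1 among them under each treatment. Of all genes tested, 30.2% and 37.6% were lower. With pairing 4 passed under palbociclib, and 37.1% of all genes tested were then lower. BNIP3, a mitochondrial protein of the hypoxia response and of mitophagy, had 88.4 and 49.4 TPM in control libraries, 96.8 and 37.2 TPM with TCP, 14.5 and 13.2 TPM with palbociclib, and 10.3 and 10.4 TPM with the combination. It was a DEG under palbociclib (-2.18, SE 0.43, limma adjusted p = 0.00662) and under the combination (-2.56, SE 0.43, limma adjusted p = 0.00255).

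Downstream of the family, 5 of 9 mitochondrial partners fell under palbociclib and 5 under the combination, and none rose. With libraries paired by replicate number, MTCH2 passed under both treatments (limma adjusted p = 0.00186 and 0.00333) and VDAC3 under the combination (0.0364), for 6 and 7 of 9. Those that fell without pairing included VDAC1, a channel of the outer membrane (-0.80 and -0.87, SE 0.08, limma adjusted p = 0.00056 and 0.000253), and CYCS, which encodes cytochrome c (-0.67 and -0.80, SE 0.10, limma adjusted p = 0.00201 and 0.000641). Of 6 genes of the apoptosome and caspases, 1 fell under each treatment (CASP2), and APAF1, CASP9 and CASP8 did not pass. Lower genes made up 30.2% and 37.6% of all genes tested under these treatments, and 37.1% and 42.9% with pairing.

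Of 6 inhibitors of apoptosis, CFLAR and BIRC3 rose and BIRC5 fell under both treatments, and with pairing BIRC2 passed under palbociclib (0.33, limma adjusted p = 0.018). CFLAR encodes FLIP, which blocks caspase-8 at death receptors, and went from 14.5 and 16.5 TPM in control libraries to 53.5 and 55.3 TPM with palbociclib and 52.4 and 50.1 TPM with the combination. Its log2 fold change was 1.75 under palbociclib (SE 0.09, limma adjusted p = 7.06e-05) and 1.66 under the combination (SE 0.09, limma adjusted p = 3.88e-05). BIRC5, the mitotic protein survivin, went from 116 and 136 TPM to 53.7 and 56.0 TPM with palbociclib and 33.9 and 42.0 TPM with the combination (-1.18 and -1.71, SE 0.17, limma adjusted p = 0.00203 and 0.000303). In the death receptor pathway, 3 of 8 tested genes rose and 2 fell under palbociclib, and 4 rose under the combination, or 5 with pairing. Of all genes tested, 14.8% were higher and 30.2% lower under palbociclib, and 15.9% and 37.6% under the combination. With pairing these shares were 18.4% and 37.1% under palbociclib and 18.6% and 42.9% under the combination. FAS, the receptor for FAS ligand, was scarce, with 0.543 and 0.534 TPM in control libraries, 2.95 and 3.14 TPM with palbociclib and 1.58 and 1.23 TPM with the combination, and was a DEG under palbociclib (1.39, SE 0.17, limma adjusted p = 0.00089).

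Genes that control the members were also read. Of 8 genes of MCL1 and BIM turnover, 1 passed under each treatment, the deubiquitinase USP13, which was lower. With pairing 2 passed under palbociclib, against a paired background of 18.4% of all genes tested higher and 37.1% lower. Of 10 tested transcription factors with known inputs to the family, 4 fell under palbociclib, and 4 fell and 1 rose under the combination, shares near those of all genes tested (30.2% lower under palbociclib, 37.6% lower and 15.9% higher under the combination). With pairing STAT5A passed under both treatments (0.50 and 0.39, limma adjusted p = 0.00188 and 0.00401). ATF4, the main factor of the integrated stress response, fell by 1.48 on the log2 scale under palbociclib (SE 0.08, limma adjusted p = 5.6e-05) and by 1.60 under the combination (SE 0.08, limma adjusted p = 2.51e-05). DDIT3 (CHOP), which ATF4 induces, had 133 and 95.4 TPM in control libraries, 40.7 and 43.9 TPM with palbociclib and 34.3 and 37.5 TPM with the combination (-1.39 and -1.63, SE 0.25, limma adjusted p = 0.00466 and 0.00181). E2F1, the cell cycle factor held by RB, was a DEG under the combination (-1.22, SE 0.21, limma adjusted p = 0.00272). FOXO3, which can induce BCL2L11, had -0.16 and -0.09 under palbociclib and the combination (limma adjusted p = 0.283 and 0.513). Under TCP alone, 0 of the 57 tested genes of these death pathway lists passed in limma, with or without pairing, and 7 had an unadjusted p below 0.05.

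**Figure D4:**
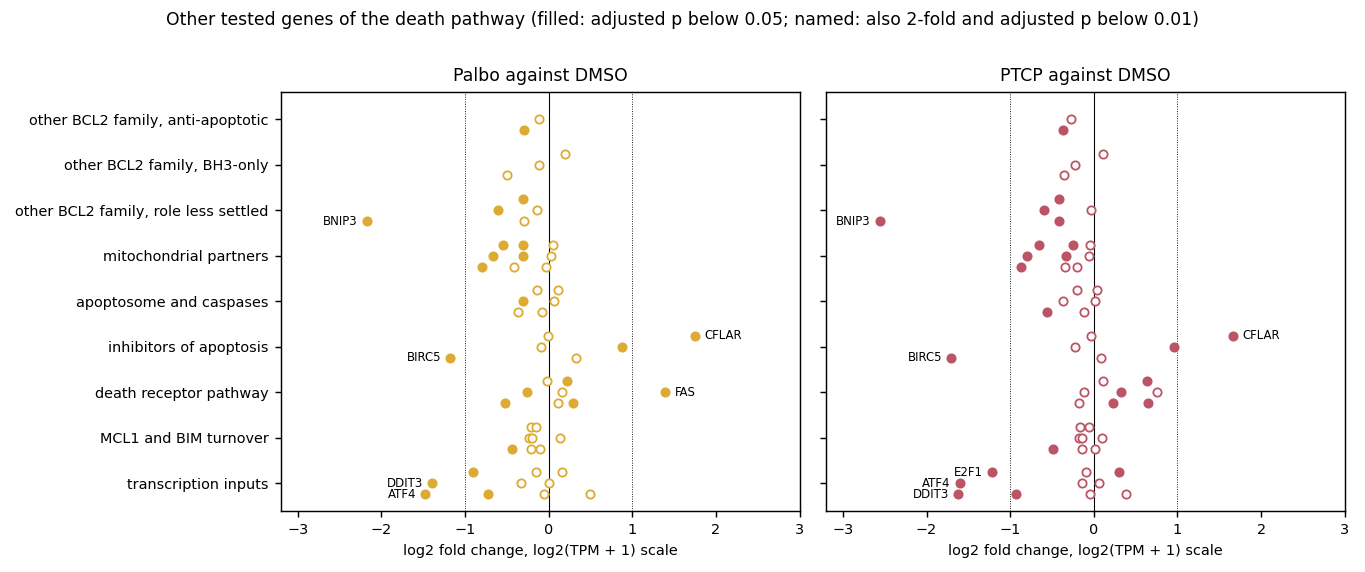
Log2 fold change against control of the other tested genes of the death pathway, 1 circle per gene, by list (rows) for palbociclib (Palbo, left) and the combination (PTCP, right); the vertical offset within a row only separates circles. Filled circles passed an adjusted p of 0.05 and named genes were DEG. BNIP3, BIRC5, ATF4 and DDIT3 lie beyond the lower fold line and CFLAR beyond the upper fold line in both panels.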

How the data were processed

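RNA-seq libraries (Illumina Stranded mRNA Prep) were mapped by the authors to hg19 (GRCh37) with subread-align and counted per gene with featureCounts 1.6.4, and the counts were converted to TPM. The deposited TPM were the only values used here, and each library sums to 1e+06. Annotation, gene lengths and strand setting are not given in the sources used here. Libraries were assigned to groups from the labels. From the TPM, log2(TPM + 1) was fitted in limma 3.58.1 (R 4.3.3; lmFit, and eBayes with a trend), with 1 coefficient per group over all 8 libraries, 4 residual degrees of freedom and Benjamini-Hochberg adjustment over the 14151 genes tested, and the fit was tested on simulated data. The study's thresholds define DEG. Deviations of same-numbered libraries correlated in all 6 pairs of groups (r = 0.169 to 0.491). A fit with the replicate number as a block was therefore an alternative. The main tests, intervals and figures are without this block. The labels do not say what a number marks. The members and all gene lists were chosen with earlier results of these data known. Genes of the lists were named where they were DEG under a treatment, up to 4 a list, and other list genes named were chosen after their values were seen. Gene positions and exon overlaps are from a GENCODE annotation of GRCh37, which need not be the one used for counting, and figures were drawn with matplotlib 3.10.9. Primary samples and chromatin data of the study were not analysed here. Some genes of the pathway lists are not reported here.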

Additional observations from a re-analysis of the deposited data

How the results depend on the processing

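The number of members called DEG was 4 under palbociclib, 5 under the combination and 4 for the combination against TCP. Without the filter on low values it was 2 under palbociclib and 2 against TCP, and with an adjusted p below 0.05 at any fold change it was 7 in both. Leaving out 1 library at a time gave 2 to 4 under palbociclib, 3 to 5 under the combination and 1 to 5 against TCP, and 0 in the other comparisons. With 1 library left in a group, that library is assumed to vary like the other groups. Pairing libraries by replicate number (the replicate block) left the DEG counts at 4, 5 and 4, and moved no member past or below an adjusted p of 0.05 beyond BCL2 under TCP, BID under palbociclib, and BAX and BID against TCP. Scaling turned the sign of small log2 values that passed no test. With median-ratio and quantile scaling these were 0.16 and 0.14 for BAK1 under palbociclib, 0.18 and 0.15 for BID under the combination and, for the combination against palbociclib, 0.060 and 0.058 for BCL2L1, 0.046 and 0.0091 for MCL1, and 0.047 and 0.047 for BAX. Leaving out 1 library also turned untested signs. Under TCP the values ranged from -1.05 to 0.44 for BCL2A1, -0.15 to 0.29 for BAX, -0.15 to 0.24 for BAK1 and -1.04 to 0.016 for PMAIP1, and BAK1 ranged from -0.032 to 0.023 under palbociclib and from -0.13 to 0.25 for the combination against TCP. For the combination against palbociclib they ranged from -0.074 to 0.066 for BCL2L1, -0.046 to 0.0057 for MCL1, -0.073 to 0.037 for BAX, -0.018 to 0.080 for BCL2L11 and -0.44 to 0.020 for PMAIP1. For the interaction they ranged from -0.33 to 1.17 for BCL2A1, -0.30 to 0.14 for BAX, -0.13 to 0.26 for BAK1, -0.055 to 0.094 for BID, -0.15 to 0.30 for BBC3 and -0.22 to 0.83 for PMAIP1. The cause of these differences was not tested. Over all genes, the 8 DEG under TCP became 3 with either scaling, 20 with pairing, 0 with only the compared groups fitted and 0 to 1 without 1 library. The 71 DEG between the combination and palbociclib became 42 with a pseudocount of 0.1, 38 without a filter, 114 with pairing, 38 with only the compared groups fitted and 1 to 52 without 1 library. The 1288 under palbociclib became 787 without palbociclib replicate 2, and the interaction gave 7 without a filter against 0. The share of DEG that were higher was 49.9% under palbociclib and 42.8% under the combination, and 66.4% and 61.9% with median-ratio scaling. Precision is limited by 2 libraries a group and an unknown depth.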
